A study of Sus scrofa with 16 samples.

Results

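The genes described here encode subunits of the mitochondrial respiratory chain and of ATP synthase from the nuclear genome. They were chosen by symbol alone: NDUFA, NDUFB, NDUFC, NDUFS or NDUFV plus a number (assembly factors named NDUFAF left out), SDHA to SDHD, symbols beginning with UQCR, COX4 to COX8 followed by letters or digits, and symbols beginning with ATP5. The rule gave 69 of 29552 named genes in the count table. Grouped by complex, 36 were counted under complex I, 4 under complex II, 2 under complex III, 10 under complex IV and 15 under complex V. The remaining 2, ATP5S and ATP5SL, share the ATP5 prefix but are not subunits of the enzyme. Grouping followed known membership, except that NDUFA4L2 was counted under complex IV only as a paralog of NDUFA4. The table uses older symbols, such as ATP5A1 and ATP5G2, which are kept here. No named gene in the count table carried the symbol COX4I1 or UQCRC1, or a symbol listed for the 13 subunits encoded by mitochondrial DNA. These were therefore not analysed here, and complexes III and IV are described only in part.

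Porcine aortic valve interstitial cells, the resident fibroblast-like cells of the leaflet, came from animals aged 5 to 6 months. Every group was kept for 48 hours in medium with 1% serum. The groups were female cells on tissue culture plastic, female cells on gel, male cells on plastic and male cells on gel, with 4 libraries each and 16 in all. The gel was a PEG-norbornene hydrogel with an elastic modulus of about 5.8 kPa. The submitters regarded cells on plastic as myofibroblasts, the contractile matrix-producing state, and cells on gel as quiescent fibroblasts. Each sex was represented by 4 biological replicates, numbered alike on both surfaces. The labels do not state whether a number marks the same animal on plastic and on gel. No strain, transgene or drug is named in the labels.

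The respiratory chain passes electrons from NADH and succinate to oxygen and pumps protons across the inner mitochondrial membrane, and ATP synthase uses the returning protons to make ATP. Complex I (NADH dehydrogenase) and complex II (succinate dehydrogenase) feed electrons to coenzyme Q, complex III passes them to cytochrome c, and complex IV (cytochrome c oxidase) hands them to oxygen. Complexes I, III, IV and V combine subunits from both genomes, whereas complex II is wholly nuclear-encoded. In fibroblasts the balance between respiration and glycolysis is known to shift during activation to myofibroblasts.

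Library totals were 16.93 to 27.48 M counts. Members took 0.186% to 0.231% of the counts in the 8 plastic libraries and 0.237% to 0.299% in the 8 gel libraries. Trimmed mean of M values (TMM) scaling, which sets most genes to no change, used factors of 0.896 to 0.984 on plastic and 1.048 to 1.124 on gel. Values below are TMM-scaled CPM, which are counts brought to a common library size. All 12 fixed valve interstitial markers were detected, with a summed level of 59700 to 76100 CPM on plastic and 42200 to 52800 CPM on gel. They did not move as one. In the test described below, over both sexes, 5 were higher and 6 lower on plastic (91.7%, against 38.3% of all tested genes). Their median log2 change was -0.12, with a range of -2.41 to 2.25. Endothelial markers (13 of 13 detected) summed to 200 to 580 CPM on plastic and 156 to 287 CPM on gel. The cardiac and skeletal muscle list summed to 81.4 to 603 CPM on plastic and 2.38 to 9.09 CPM on gel, led by DES, ACTA1 and ACTC1, while 5 of its 13 genes, among them TNNT2 and NPPA, were at 0 in every library. Leukocyte markers summed to at most 38.5 CPM and epithelial markers to at most 0.452 CPM. Whether these markers had a part in the results below was not tested, and in such bulk samples fewer cells of a type and less RNA per cell cannot be told apart.

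Plastic and gel were compared first, over both sexes. A single member, NDUFB1, rose on plastic and 14 members fell, out of 68 tested (22.1%). Among the 14 were the complex I genes NDUFA13, NDUFS1, NDUFB4, NDUFS5, NDUFB10 and NDUFS3 and the complex II gene SDHD. Others were the complex IV genes COX6C and COX7A1, the complex V genes ATP5G2, ATP5F1 and ATP5B, and NDUFA4L2, counted with complex IV. Over all 14530 tested genes 38.3% passed the same test, 18.5% higher and 19.8% lower on plastic, so the members' share lay below that of all genes with TMM scaling. Without TMM factors it lay above: 1 member passed as higher and 46 as lower (69.1%), against 55.6% of all tested genes, 10.6% higher and 45% lower. The test was edgeR's quasi-likelihood F test with Benjamini-Hochberg adjustment over all tested genes and a threshold of 0.05, used for every adjusted p below. The untested member was COX8H, a complex IV gene with 0 counts in all 16 libraries, where 3 counts would correspond to 0.109 to 0.178 CPM.

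Most members had small estimates. The median log2 change was -0.07 for the 68 members and -0.04 for all tested genes, and 48 of 68 members had a negative estimate. Changes beyond 1.5-fold were found in 3 members (NDUFB1, COX7A1 and NDUFA4L2), against 23.3% of all tested genes. There were also 3 such members in females, against 24.8% of all tested genes, and 3 in males, against 26.2%. The 95% interval of the change lay wholly within 1.5-fold in either direction for 63 of 68 members (92.6%), against 49.1% of all tested genes. Without TMM factors the median of all tested genes was itself -0.28 and that of the members -0.31. The small changes are therefore given relative to other genes.

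**Figure D1:**
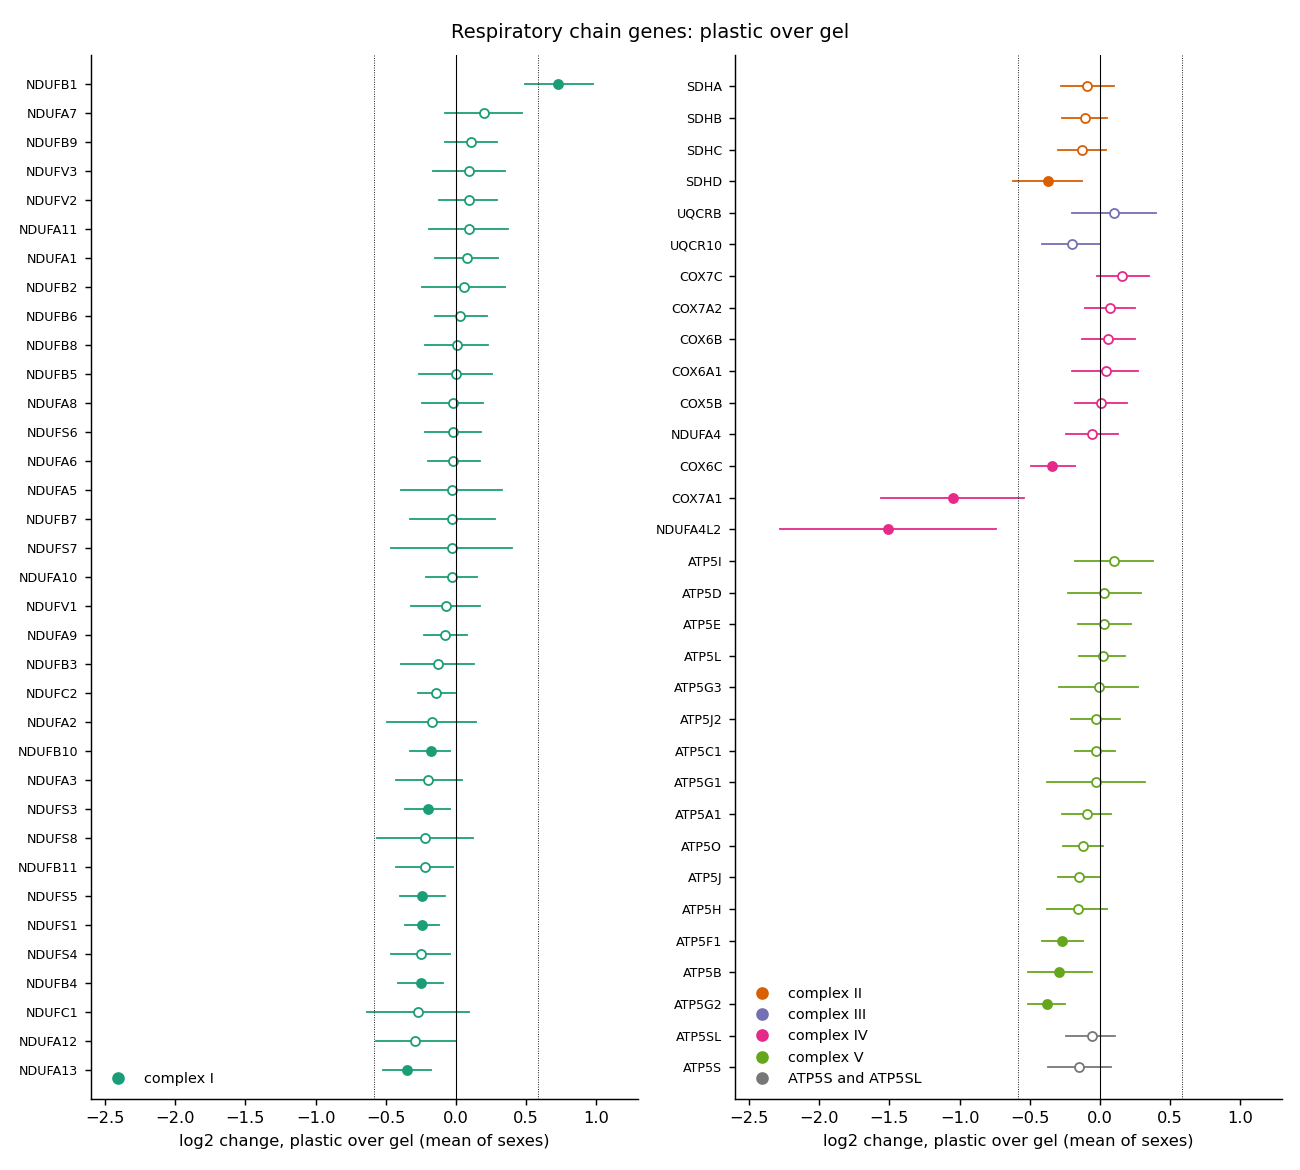
Log2 change of plastic over gel, averaged over the sexes, for 67 of the 68 tested respiratory chain genes, with 95% intervals; filled points passed the test, and dotted lines mark a 1.5-fold change. NDUFB1 at 0.73 is the one filled point to the right of 0, COX7A1 at -1.05 and NDUFA4L2 at -1.51 lie farthest to the left, and most open points lie close to 0.

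Within the female cells 1 member rose and 12 fell on plastic (19.1% of 68, against 23.9% of all tested genes, 12.7% higher and 11.3% lower). Within the male cells 1 rose and 8 fell (13.2%, against 25.8% of all tested genes, 12.9% in each direction). The median log2 change of members was -0.17 in females, where that of all genes was -0.04, and -0.02 in males, where that of all genes was -0.03. Negative estimates were given by 56 of 68 members in females and by 34 of 68 in males. In the fit of all 16 libraries, NDUFB1, ATP5G2, COX6C, NDUFA13, NDUFS1, COX7A1 and NDUFA4L2 passed in both sexes. The 4 plastic libraries lay clear of the 4 gel libraries in 1 member higher and 15 lower in females (27.7% of all tested genes, 13.7% higher and 14% lower). In males 0 members lay clear above and 6 below (28.9% of all tested genes, 14.8% higher and 14% lower). The difference between the sexes in the surface change passed for no member, as given further on.

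NDUFB1, a small accessory subunit in the membrane arm of complex I (Sscrofa11.1, chromosome 7, 113652772 to 113659937), was the member that rose. It had 23.1, 25.6, 27.2 and 28.6 CPM in female plastic, against 14.2, 13.7, 17.3 and 13.2 CPM in female gel. In males it had 23.5, 22.2, 27.3 and 19.8 CPM on plastic, against 11.4, 20.2, 15.8 and 12.6 CPM on gel. All 4 female plastic libraries lay above all 4 female gel libraries, while male gel 2, at 20.2 CPM, reached into the male plastic range. The level on plastic was 1.66 times that on gel, a log2 change of 0.73 (SE 0.11, adjusted p = 7.81e-05). The change was 0.84 in females (SE 0.16, adjusted p = 0.00112) and 0.63 in males (SE 0.16, adjusted p = 0.00871). This call held in both sexes with each single library left out. NDUFB1 overlaps the neighbouring gene CPSF2 by 35 bases in the RefSeq annotation, and the counting is not stated to use strand.

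Among the 7 core subunits of complex I in the table, the conserved subunits of its catalytic arm, 3 fell on plastic and 4 did not pass, with a median log2 change of -0.20. NDUFS1, the large iron-sulfur subunit of the NADH-oxidising tip (chromosome 15, 109413726 to 109451813), had 44, 39.6, 44.8 and 41.8 CPM in female plastic, against 51.7, 46.2, 51.8 and 50.1 CPM in female gel. In males it had 46.1, 43.8, 45.6 and 43.3 CPM on plastic, against 50.5, 56.2, 50.5 and 55.2 CPM on gel. All 8 plastic libraries lay below all 8 gel libraries, though only just: male plastic 1 stood at 46.1 CPM and female gel 2 at 46.2 CPM. The mean change over the sexes was -0.24 (SE 0.05, adjusted p = 0.00204), a call kept with each single library left out. The female change of -0.23 (adjusted p = 0.0352) did not pass with the replicate number as a block (adjusted p = 0.0615), nor without female gel 1, 3 or 4 or female plastic 1, 2 or 4 (adjusted p up to 0.107).

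Another core subunit that fell, NDUFS3 of the same arm, changed by -0.20 (SE 0.07, adjusted p = 0.0392), with 17 to 19.2 CPM in female plastic and 19.1 to 24.3 CPM in female gel. Its call was lost when any one library was left out except female gel 1, female plastic 3, male gel 2 or male plastic 1 (adjusted p up to 0.0824) and with the replicate number as a block (adjusted p = 0.0571). In females it passed (-0.29, SE 0.10, adjusted p = 0.047) but did not with the block (adjusted p = 0.0658), nor when any one library was left out except female gel 1, male gel 1, male gel 2 or male plastic 1 (adjusted p up to 0.129). NDUFS7 and NDUFS8, iron-sulfur subunits beside the Q site, and NDUFV1 and NDUFV2, which take electrons from NADH, did not pass. NDUFS8 had 19.3, 20.2, 16.9 and 16.6 CPM in female plastic, against 20.8, 25.9, 24.4 and 24.1 CPM in female gel. Male plastic libraries had 19.1, 19.1, 18.6 and 20.9 CPM of NDUFS8, against 24.5, 8.7, 23.1 and 24 CPM in male gel. The female groups did not overlap. Male gel 2 had the lowest NDUFS8 value of all 16 libraries while the other 3 male gel libraries lay above every male plastic one. The change was -0.22 (SE 0.16, adjusted p = 0.293), and -0.32 (adjusted p = 0.00101) without male gel 2 and female plastic 4. That pair was singled out from these same data.

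Of the 29 accessory subunits of complex I, 1 rose (NDUFB1), 4 fell and 24 did not pass, with a median log2 change of -0.03. NDUFA13 (also known as GRIM-19; chromosome 2, 58401542 to 58410414), which is needed to assemble the complex, had 17.9, 19.5, 21.3 and 17.5 CPM in female plastic, against 26.1, 22.9, 26.1 and 23.2 CPM in female gel. Male plastic libraries had 20.8, 17.4, 19.1 and 17.9 CPM, against 26, 22, 26 and 20.2 CPM in male gel. The female groups did not overlap, and the male groups overlapped between male plastic 1 and male gel 4. NDUFA13 changed by -0.35 (SE 0.08, adjusted p = 0.00196). Smaller falls were seen for NDUFB4 (-0.25, SE 0.07, adjusted p = 0.0116), NDUFS5 (-0.24, SE 0.07, adjusted p = 0.0178) and NDUFB10 (-0.18, SE 0.07, adjusted p = 0.0378), which all sit in the membrane arm or on its outer face. The call of NDUFB10 was lost when any one library was left out except female gel 1, female gel 2, female plastic 4, male gel 1, male gel 2, male gel 4 or male plastic 3 (adjusted p up to 0.0827) and with the replicate block (adjusted p = 0.0508). By sex, NDUFB10 passed in males (-0.28, SE 0.09, adjusted p = 0.0355) but not in females (-0.08, SE 0.09, adjusted p = 0.567). NDUFB4 and NDUFB10 each overlap another gene in the annotation, NDUFB4 a long non-coding RNA gene by 6348 bases and NDUFB10 the gene RPL3L by 744 bases. NDUFS4, an accessory subunit of the NADH-oxidising tip that is mutated in Leigh syndrome in humans, had 18.3 to 22.7 CPM in female plastic and 22.9 to 32 CPM in female gel. It passed in females alone (-0.40, SE 0.14, adjusted p = 0.0404), a call lost with the replicate block (adjusted p = 0.0514) and when female gel 1 or 3, female plastic 1, 2 or 4, or male plastic 3 or 4 was left out (adjusted p up to 0.123).

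**Figure D2:**
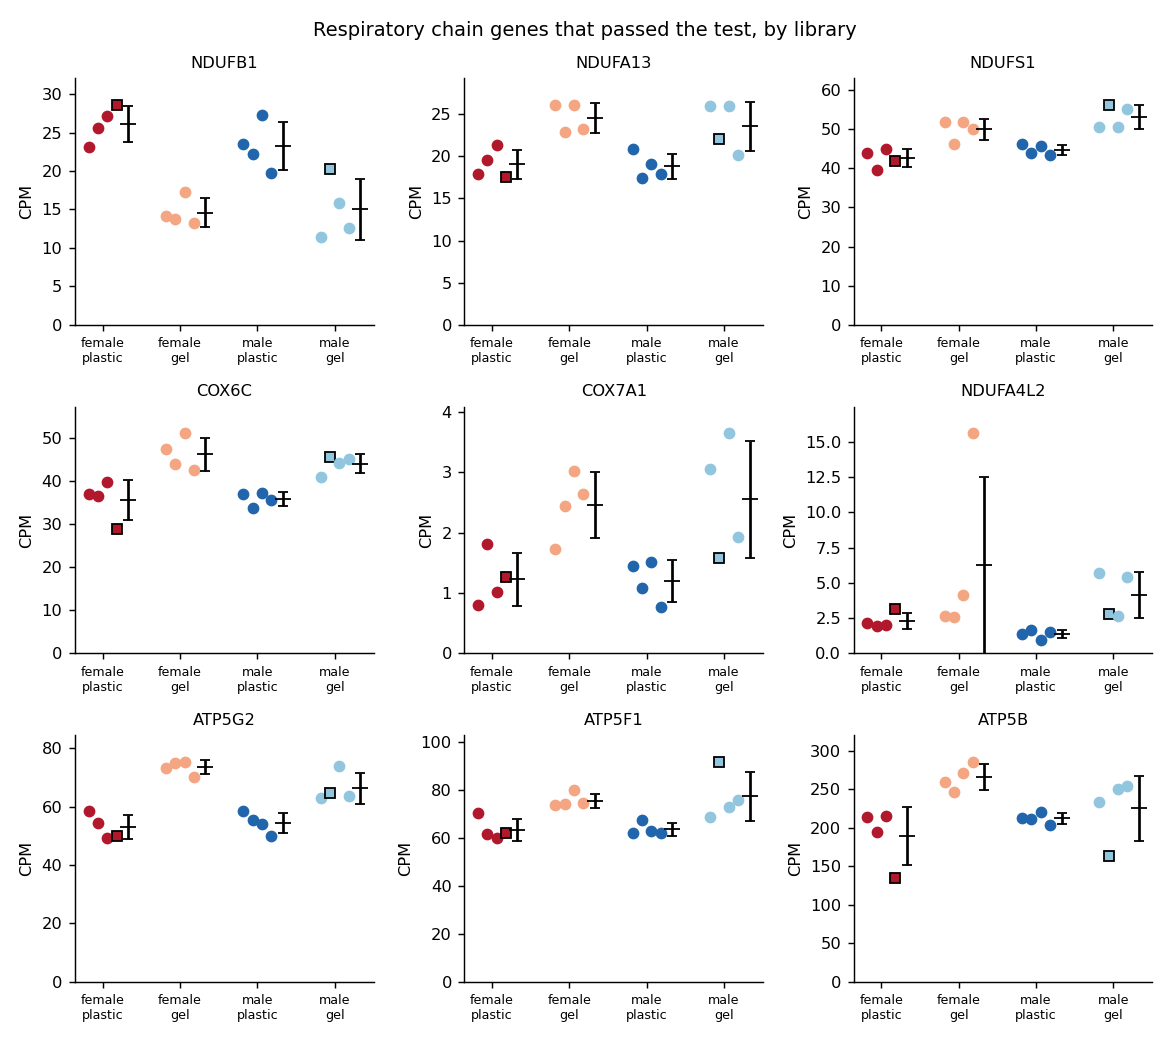
TMM-scaled CPM per library of 9 members that passed the plastic against gel comparison; circles are libraries, squares with a black edge are female plastic 4 and male gel 2, and black bars are group means with SD (n = 4). In both sexes the group mean of NDUFB1 lies higher on plastic and those of the other 8 lie lower, though ATP5B did not pass in males. Female gel 4 stands alone at 15.6 CPM for NDUFA4L2.

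In complex II, SDHD fell on plastic and the other 3 subunits did not pass. SDHD, a membrane anchor of succinate dehydrogenase, had 25.1, 26.5, 30.8 and 15.6 CPM in female plastic, against 33.1, 35, 37.5 and 34.4 CPM in female gel. Its male values were 28.4, 27.2, 28.1 and 26.4 CPM on plastic, against 35.9, 25.3, 35.4 and 32.9 CPM on gel. The female groups did not overlap, and in males the overlap came from male gel 2. SDHD passed in females (-0.51, SE 0.16, adjusted p = 0.0266) but not in males (-0.24, SE 0.16, adjusted p = 0.296). Over both sexes the change was -0.37 (SE 0.11, adjusted p = 0.0143). The log2 change was estimated at -0.09 for SDHA, the flavoprotein (SE 0.09), -0.11 for SDHB, the iron-sulfur subunit (SE 0.07), and -0.13 for SDHC, the other anchor (SE 0.08). Neither of the small complex III subunits passed: UQCR10 was at -0.20 (SE 0.09, adjusted p = 0.1) and UQCRB at 0.10 (SE 0.14, adjusted p = 0.604).

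The 2 largest falls were those of COX7A1, a complex IV subunit, and NDUFA4L2, counted here with complex IV as a paralog of NDUFA4. Of the 9 tested genes counted under complex IV, 3 fell on plastic, 0 rose and 6 did not pass. COX6C, a structural subunit (chromosome 4, 37074619 to 37089364), had 36.9, 36.5, 39.8 and 28.9 CPM in female plastic, against 47.4, 43.8, 51 and 42.5 CPM in female gel. In males the values were 36.9, 33.6, 37.2 and 35.5 CPM on plastic, against 40.8, 45.6, 44.2 and 45.1 CPM on gel. All 8 plastic libraries lay below all 8 gel libraries. COX6C changed by -0.34 (SE 0.07, adjusted p = 0.00113), and it overlaps VPS13B by 3436 bases in the annotation.

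COX7A1 is the isoform of subunit VIIa typical of heart and skeletal muscle (chromosome 6, 45519225 to 45520721), and COX7A2 is its widely expressed counterpart. COX7A1 had 0.799, 1.82, 1.01 and 1.27 CPM in female plastic, against 1.73, 2.44, 3.02 and 2.65 CPM in female gel. The male libraries had 1.45, 1.09, 1.51 and 0.761 CPM on plastic, against 3.05, 1.58, 3.65 and 1.93 CPM on gel. These levels rest on 18 to 98 counts per library, and the groups overlapped in females but not in males. COX7A1 fell to 0.483 times the gel level, a log2 change of -1.05 (SE 0.23, adjusted p = 0.00204). The call held with each single library left out. The summed level of the muscle marker list, led by DES, ACTA1 and ACTC1, was higher on plastic as given above. A link between that list and COX7A1 was not tested. COX7A2 had 26.4, 26.9, 30.9 and 26.7 CPM in female plastic, against 27.5, 27.1, 37.1 and 32.5 CPM in female gel. In males COX7A2 had 34.3, 28, 32.2 and 30.4 CPM on plastic, against 24.4, 21.6, 26.9 and 28 CPM on gel. In females 3 of 4 plastic libraries lay below all 4 gel libraries, in males the ranges met at 28 CPM with plastic above, and COX7A2 passed in neither sex. The male change was 0.31 (SE 0.12, adjusted p = 0.0671), which passed with the replicate block (adjusted p = 0.0376) and with DESeq2 (adjusted p = 0.0401). COX7C, another small subunit, was at 0.29 in males (SE 0.12, adjusted p = 0.0938) and passed with the replicate block (adjusted p = 0.0205), as did its mean over the sexes of 0.16 (adjusted p = 0.146 without the block and 0.0379 with it).

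NDUFA4L2 and NDUFA4 are paralogs named after complex I, of which NDUFA4 has since been assigned to complex IV. NDUFA4L2 is known as a hypoxia-inducible gene. NDUFA4L2 (chromosome 5, 22540482 to 22548418) had 2.13, 1.96, 2.02 and 3.16 CPM in female plastic, against 2.67, 2.56, 4.14 and 15.6 CPM in female gel. Male plastic libraries had 1.4, 1.62, 0.932 and 1.52 CPM, against 5.68, 2.82, 2.65 and 5.43 CPM in male gel. The male groups did not overlap, whereas in females the plastic and gel ranges met and female gel 4 stood far above the rest. The mean change over the sexes was -1.51 (SE 0.35, adjusted p = 0.00288). In females alone it was -1.43 (SE 0.49, adjusted p = 0.0445), and without female gel 4 it was -0.43 and not called (adjusted p = 0.388). The female call was also lost when any one female plastic or male plastic library was left out. The male change of -1.60 (SE 0.51, adjusted p = 0.0299) was not called when male plastic 1, 2, 3 or 4 or male gel 1 or 4 was left out (adjusted p up to 0.0861). NDUFA4 was at -0.06 (SE 0.08, adjusted p = 0.623), with 20.5 to 31.4 CPM on female plastic and 27.8 to 34.3 CPM on female gel. Its symbol has a second locus, a pseudogene, and reads shared between such copies cannot be told apart here. The other complex IV subunits, COX5B, COX6A1 and COX6B, were at 0.01, 0.04 and 0.06 (SE 0.09, 0.11 and 0.09) and did not pass.

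In complex V, 3 of 15 subunits fell, 0 rose and 12 did not pass, with a median log2 change of -0.03. ATP5G2 encodes one of the nearly identical precursors of the c subunit, the rotating proton ring (chromosome 5, 18871025 to 18879933). It had 58.4, 54.5, 49.4 and 49.9 CPM in female plastic, against 73.4, 75, 75.4 and 70.2 CPM in female gel. Male plastic libraries had 58.5, 55.3, 54 and 49.9 CPM, against 62.9, 64.7, 74.1 and 63.6 CPM in male gel. Every plastic library lay below every gel library. ATP5G2 fell to 0.77 times the gel level, a log2 change of -0.38 (SE 0.06, adjusted p = 8.94e-05), with -0.47 in females (SE 0.08, adjusted p = 0.000643) and -0.29 in males (SE 0.08, adjusted p = 0.0199). The male call was lost without male plastic 3, male plastic 4 or male gel 3 (adjusted p up to 0.0701). With COX6C and NDUFS1 it made up the 3 members whose 8 plastic libraries all lay below all 8 gel libraries, against 5.6% of all tested genes. None had its 8 plastic libraries all above, against 7.38% of all tested genes, or 13% in either direction.

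The other c-subunit genes did not pass. ATP5G1 had 16.3, 18.8, 20 and 9.07 CPM in female plastic, against 17.6, 18.2, 23.4 and 20.6 CPM in female gel. In males it had 18.9, 20.6, 22.8 and 19.5 CPM on plastic, against 18.9, 10, 18.4 and 21.3 CPM on gel. Female plastic 4 and male gel 2 were the lowest libraries for ATP5G1, and the same was seen for ATP5G3, at 42.9 and 42.4 CPM, where the other 14 libraries had 69.8 to 87.1 CPM. The mean change was -0.03 for ATP5G1 (SE 0.16, 95% interval -0.38 to 0.32) and -0.01 for ATP5G3 (SE 0.13, 95% interval -0.29 to 0.27). Both intervals overlap that of ATP5G2, -0.51 to -0.25, and the difference between these genes was not tested.

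ATP5F1, the b subunit of the peripheral stalk, had 70.3, 61.5, 60 and 62.1 CPM in female plastic, against 73.6, 74, 79.9 and 74.5 CPM in female gel. The male libraries had 62.1, 67.6, 63 and 61.9 CPM on plastic, against 68.7, 91.8, 72.8 and 76 CPM on gel. The groups did not overlap in either sex, and the change was -0.27 (SE 0.06, adjusted p = 0.00376). ATP5F1 overlaps WDR77 by 435 bases. ATP5B, the catalytic beta subunit, had 214, 195, 215 and 135 CPM in female plastic, against 260, 247, 271 and 286 CPM in female gel. Male plastic libraries had 213, 211, 221 and 204 CPM of ATP5B, against 234, 163, 251 and 254 CPM in male gel. The lowest values in each set came from female plastic 4 and male gel 2. ATP5B passed in females (-0.49, SE 0.15, adjusted p = 0.0222) but not in males (-0.09, SE 0.15, adjusted p = 0.702). The difference between the sexes did not pass (adjusted p = 0.767). Over both sexes ATP5B changed by -0.29 (SE 0.10, adjusted p = 0.0357). That call was lost when any one library was left out except female gel 1, female gel 2, female plastic 1, female plastic 3, male gel 2 or male plastic 3 (adjusted p up to 0.0714). Without male gel 2 and female plastic 4 together, a pair singled out from these same data, the estimate was also -0.29, with an adjusted p of 0.000254. The alpha subunit ATP5A1 and the central stalk subunits ATP5C1, ATP5D and ATP5E were at -0.09, -0.03, 0.03 and 0.03 (SE 0.08, 0.07, 0.12 and 0.09) and did not pass. ATP5J, a stalk subunit, was at -0.15 (adjusted p = 0.0908) and passed with the replicate block (adjusted p = 0.0493), as did its female change (adjusted p = 0.0492). ATPIF1, the inhibitor of ATP synthase, is not among the 69 genes, and its change of 0.12 did not pass (SE 0.10, adjusted p = 0.347).

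**Figure D3:**
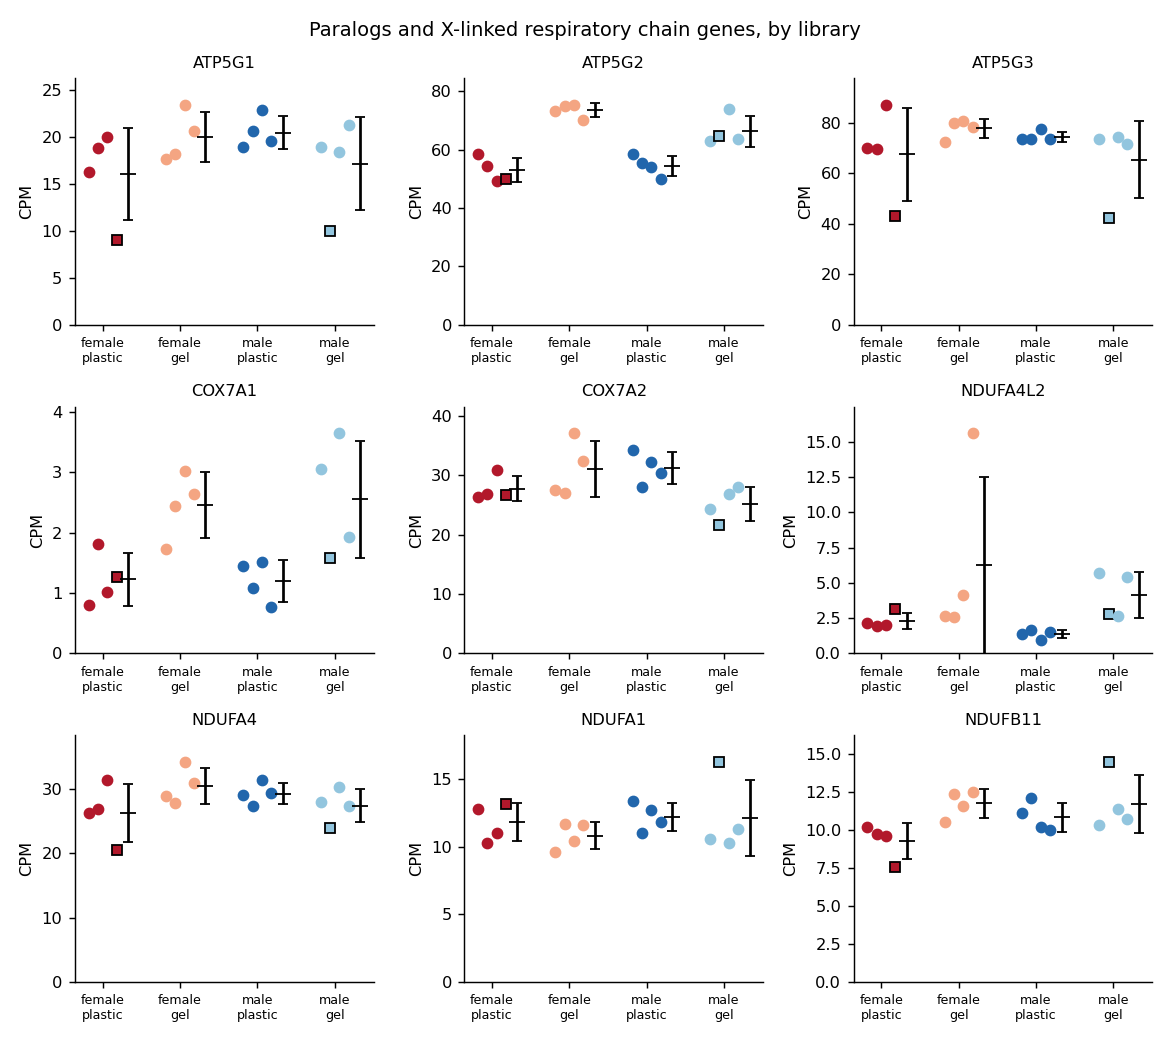
TMM-scaled CPM per library of paralogous and X-linked respiratory chain genes; circles are libraries, squares with a black edge are female plastic 4 and male gel 2, and black bars are group means with SD (n = 4). The mean bars of ATP5G2, COX7A1 and NDUFA4L2 lie lower on plastic in both sexes; ATP5G2 is the one panel of the 9 in which plastic and gel do not overlap in either sex.

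Calls within one sex depended on single libraries. In females, 4 of the 13, among them NDUFB1, ATP5G2 and COX6C, stayed called with each library left out, and the other 9 did not. Without female plastic 4 those 4 and no other of the 13 remained, with 1 member higher and 4 lower, and without male gel 2 there were 1 higher and 19 lower. Without female gel 3, 1 was higher and 5 lower, without female plastic 1, 1 was higher and 6 lower, and without female plastic 2 or female gel 4, 1 was higher and 7 lower. In males NDUFB1 alone stayed called with each library left out. Without male plastic 4, 1 member was higher and 0 lower, and without male plastic 2, 1 was higher and 2 lower. Leaving out male plastic 3 or male gel 3 gave 1 higher and 3 lower, and leaving out male plastic 1 or male gel 4 gave 1 higher and 4 lower. Over both sexes 12 of 15 calls were kept with each single library left out, the exceptions being NDUFS3, NDUFB10 and ATP5B.

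Female and male cells were compared on each surface, the sex question of the study. No member passed, and none separated all 8 female from all 8 male libraries (0.124% of all tested genes did). On gel 3 of 68 members had an unadjusted p under 0.05 and on plastic 1 of 68. All genes gave few calls too, 0.103% on gel and 0.124% on plastic, and DESeq2 and limma-voom called 0 members on either surface. COX7A2 had 27.5, 27.1, 37.1 and 32.5 CPM in female gel, against 24.4, 21.6, 26.9 and 28 CPM in male gel, a female minus male log2 difference of 0.30 (SE 0.12, adjusted p = 0.852). NDUFA8, an accessory subunit on the outer face of complex I, had 18.2, 20.6, 19.1 and 20.2 CPM in female gel, against 15.5, 12.3, 17.4 and 18.1 CPM in male gel. It was the one member whose female gel libraries all lay above the male gel libraries (2.03% of all tested genes did not overlap on gel), with a difference of 0.30 (SE 0.14, adjusted p = 0.852). On plastic, NDUFB3 and NDUFA4L2 did not overlap between the sexes and were higher in females (2.85% of all tested genes did not overlap), with differences of 0.25 (SE 0.17) and 0.76 (SE 0.52) and adjusted p = 0.98 for both. NDUFB10 had the smallest p on plastic, with 25.6 to 30.5 CPM in females and 23.2 to 25.9 CPM in males, a difference of 0.23 (SE 0.09, 95% interval 0.02 to 0.43, adjusted p = 0.98).

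The X-linked members are NDUFA1 (chromosome X, 98219717 to 98223873), needed for assembly of the membrane arm, and NDUFB11 (chromosome X, 41770929 to 41773879), a membrane arm subunit. NDUFA1 had 12.8, 10.3, 11 and 13.2 CPM in female plastic, against 13.4, 11, 12.7 and 11.8 CPM in male plastic. On gel it had 9.62, 11.7, 10.4 and 11.6 CPM in females, against 10.6, 16.3, 10.3 and 11.3 CPM in males. The sexes overlapped on both surfaces, with a female minus male difference of -0.05 on plastic (SE 0.15, 95% interval -0.37 to 0.28) and -0.16 on gel (SE 0.15, 95% interval -0.48 to 0.16). NDUFB11 had 10.2, 9.77, 9.63 and 7.55 CPM in female plastic, against 9.97 to 12.1 CPM in male plastic, a difference of -0.22 (SE 0.13, 95% interval -0.52 to 0.07). On gel its difference was 0.00 (SE 0.13, 95% interval -0.28 to 0.28). Both sexes thus overlapped for NDUFB11 as well. NDUFB11 shares 648 bases with RBM10 and NDUFA1 shares 215 with RNF113A in the annotation.

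The surface change was then compared between the sexes, as the female change minus the male change. No member passed, 1 of 68 had an unadjusted p under 0.05, and 0% of all tested genes passed. DESeq2 and limma-voom also called 0 members. The smallest p was that of COX7A2, whose change was -0.16 in females and 0.31 in males, a difference of -0.47 (SE 0.17, unadjusted p = 0.0123, adjusted p = 0.767). NDUFA2, an accessory subunit of the NADH-oxidising tip, came next, with 10.5, 10.6, 10.6 and 6.96 CPM in female plastic, against 12.3, 12.8, 15.1 and 13.2 CPM in female gel. Its male values were 9.53, 10.9, 12.2 and 9.72 CPM on plastic, against 10.8, 5.31, 12.3 and 10.3 CPM on gel. Female plastic 4 and male gel 2 were the lowest in their groups, and the difference between the sexes was -0.59 (SE 0.29, adjusted p = 0.767). The largest positive difference was that of UQCRB, 0.51 (SE 0.28, adjusted p = 0.767). The median over members was -0.15 and 49 of 68 were negative, where the median of all genes was -0.01. Without male gel 2 and female plastic 4 the member median was -0.07.

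Those libraries stood apart from their own groups across the members. Male gel 2, which had the lowest total at 16.93 M counts, departed by over 0.5 log2 from the other 3 male gel libraries in 26 of 68 members, 17 below and 9 above. Female plastic 4 departed as far from its group in 13 members, 9 below and 4 above, where the other 14 libraries did so in 0 to 6. Such departures were counted for the members alone, so whether they are particular to the members was not tested. Both were low for NDUFS7, with 6.67 CPM in female plastic 4 and 3.84 CPM in male gel 2, where the other 14 libraries had 10.8 to 13.9 CPM. Both were high for NDUFA5 (23.3 and 35.9 CPM, others 13.5 to 21.1 CPM) and UQCRB (23.9 and 24.4 CPM, others 12 to 17.3 CPM). Across the 68 members the departures of the pair correlated with Pearson's r of 0.66 and Spearman's rho of 0.65, and 53 had the same sign. That correlation is across genes, which are not independent replicates, and the libraries come from different sexes and surfaces. Male gel 2 was the lowest or highest of the 16 libraries in 58.8% of members and 45.2% of all tested genes. For female plastic 4 these shares were 26.5% and 19.6%. Female gel 3 was the highest in 26 members and the lowest in 0, a share of 38.2% against 6.88% of all tested genes. Its mean deviation over the members, 0.225 log2, was the largest of the 16 libraries.

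**Figure D4:**
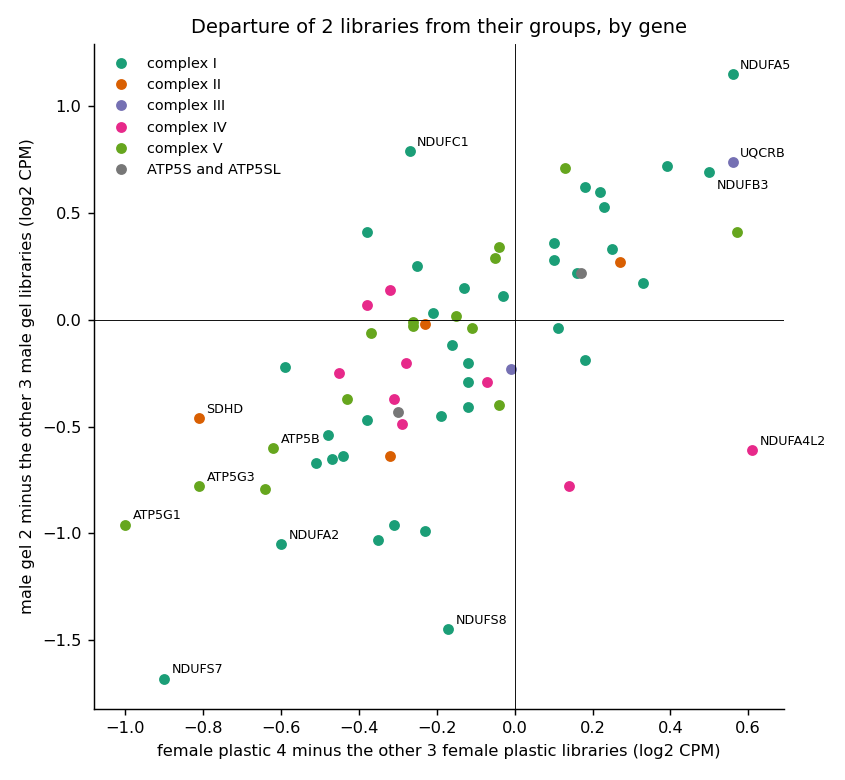
Departure of female plastic 4 from the mean of the other 3 female plastic libraries (horizontal axis, log2 CPM) and of male gel 2 from the other 3 male gel libraries (vertical axis, log2 CPM), 1 point for each of 68 genes, coloured by complex. The points run from NDUFS7 and ATP5G1 at the lower left to NDUFA5 and UQCRB at the upper right, and 53 of 68 lie in the quadrants where both have the same sign.

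With both libraries left out, the surface comparison over the sexes called 1 member higher and 18 lower (44.7% of all tested genes passed), the female one 1 higher and 16 lower (29.3%), and the male one 1 higher and 11 lower (28.6%). All 15 members called over both sexes with 16 libraries were called again, joined by NDUFS8 (-0.32, adjusted p = 0.00101), NDUFC2 (-0.16, adjusted p = 0.0219), SDHA (-0.12, adjusted p = 0.033) and NDUFA2 (-0.21, adjusted p = 0.045). The medians of members were then -0.11 in females and -0.04 in males. The pair was singled out from these same data, and leaving out such libraries can by itself lower the spread. The counts and adjusted p-values of this fit are therefore no independent support for a call.

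**Figure D5:**
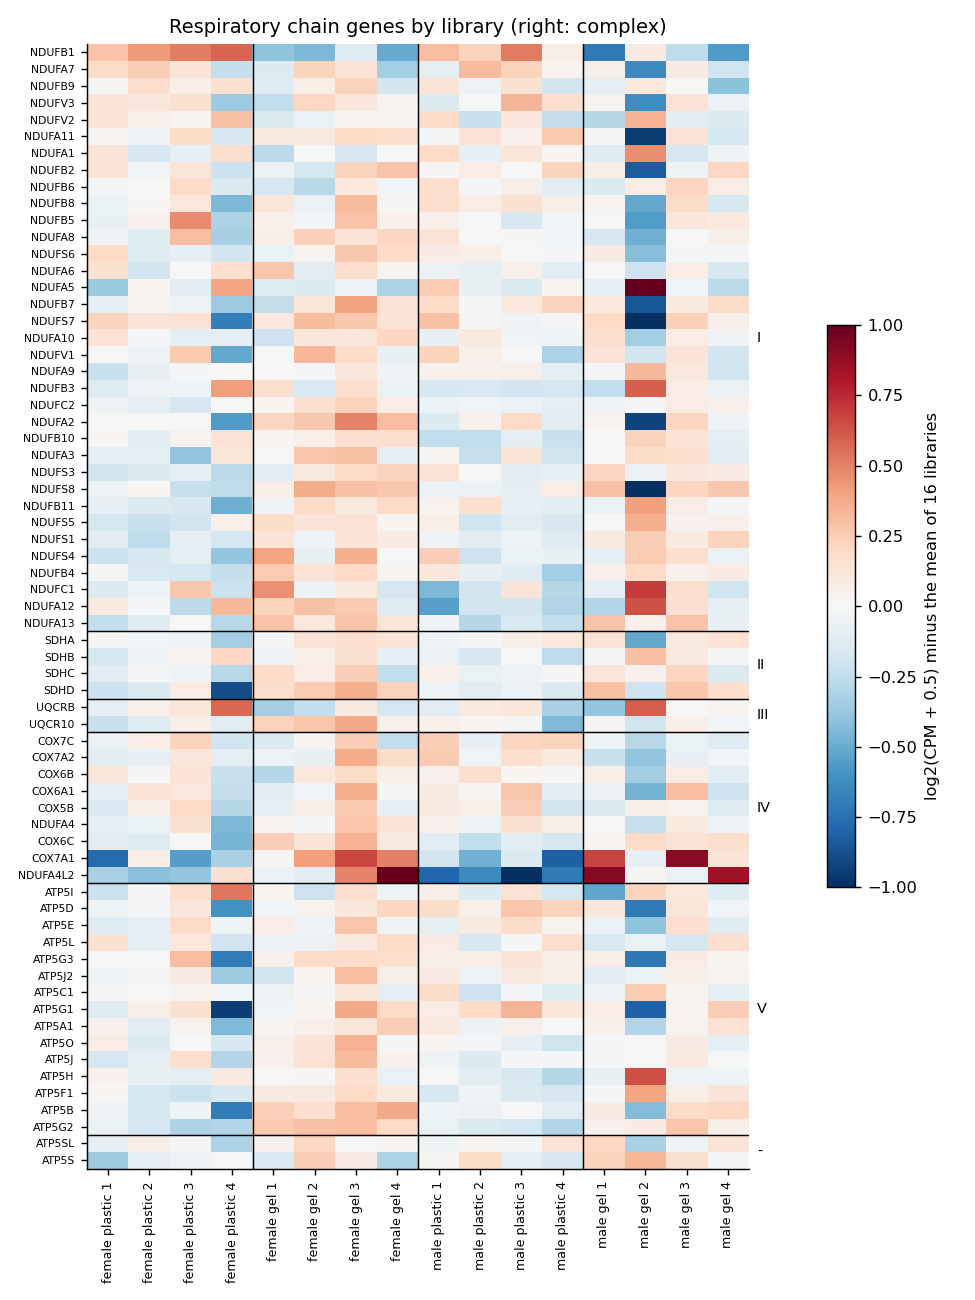
Log2(CPM + 0.5) minus the mean over 16 libraries for 67 of the 68 tested members (rows, by complex and by surface change) in each library (columns, by group); red is above and blue below the mean, with colours limited to 1 log2 unit. NDUFB1 is mostly red and COX7A1 and NDUFA4L2 mostly blue on plastic, and the male gel 2 column is the lowest or highest of the 16 libraries in 58.8% of the 68 members, against 45.2% of all tested genes.

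Genes that build or feed the chain were described by lists, for the change over both sexes, in which 38.3% of all tested genes passed, 18.5% higher and 19.8% lower. Of 15 tested complex I assembly factors 0 rose and 3 fell on plastic (median -0.18), with TMEM186 at -0.82 (SE 0.15, adjusted p = 0.000438) and NDUFAF1 at -0.36 (SE 0.09, adjusted p = 0.00493). Of 14 assembly factors of the other complexes 3 rose and 1 fell, with TMEM70, needed for ATP synthase, at 0.45 (SE 0.12, adjusted p = 0.00694) and COX10, which makes the heme of cytochrome c oxidase, at 0.30 (SE 0.08, adjusted p = 0.00677). Among 14 genes of coenzyme Q and cytochrome c 3 rose and 4 fell. CYCS, cytochrome c itself, was at 0.36 (SE 0.09, adjusted p = 0.0054), and the coenzyme Q methyltransferase COQ5 at -0.46 (SE 0.09, adjusted p = 0.000886). Of 17 tricarboxylic acid cycle and pyruvate dehydrogenase genes 4 rose and 3 fell, with SUCLA2, a subunit of succinyl-CoA synthetase, at 0.94 (SE 0.13, adjusted p = 1.86e-05) and PDHX at -0.60 (SE 0.12, adjusted p = 0.000813).

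Of 17 tested regulators of mitochondrial genes 2 rose and 4 fell. EPAS1, an oxygen-regulated transcription factor, changed by -0.51 (SE 0.10, adjusted p = 0.000583) and TFAM, which packages and transcribes mitochondrial DNA, by -0.52 (SE 0.12, adjusted p = 0.00294). The nuclear factors NRF1 and GABPA, known to act on many of these promoters, changed by -0.31 (SE 0.08) and -0.37 (SE 0.11). The 2 that rose were TFB1M at 0.32 (SE 0.09, adjusted p = 0.00846) and PPRC1 at 0.19 (SE 0.07, adjusted p = 0.0411). TFAM, NRF1, GABPA and TFB1M passed in males (adjusted p = 0.00228, 0.0124, 0.0126 and 0.0168). In females they did not (adjusted p = 0.394, 0.164, 0.519 and 0.259). PPRC1 passed in neither sex and EPAS1 in both. The difference between the sexes passed for no tested gene. PPARGC1A, a coactivator of mitochondrial biogenesis, was too low to be tested. Of 24 glycolysis and lactate genes 4 rose and 6 fell. PDK1, which restrains pyruvate dehydrogenase, was at 0.87 (SE 0.08, adjusted p = 3.63e-07), HK1 at 0.67 (SE 0.07), PFKM at -0.64 (SE 0.08) and LDHB at -0.59 (SE 0.08). Of 25 import and cristae genes 3 rose and 8 fell. SLC25A4, the adenine nucleotide carrier of muscle type, was at 0.90 (SE 0.11, adjusted p = 5.94e-06) and TOMM70, an import receptor, at -0.34 (SE 0.05, adjusted p = 7.23e-05).

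ATP5G2, the paralogous member with the smallest p, was compared with every tested gene over the 16 libraries. The closest by Spearman correlation of log2 CPM were PEBP1 (0.918), CFD (0.912), LAPTM4B (0.912), PIH1D1 (0.912) and HSPE1 (0.909). Among members NDUFB4 (0.850) and ATP5F1 (0.847) were closest, and NDUFB1 was farthest at -0.715. These libraries share their surface and scaling, so the coefficients are descriptions.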

How the data were processed

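PolyA RNA from the 16 cultures was sequenced; per the labels' protocols RNA was purified with the RNeasy Micro kit and libraries made with KAPA mRNA HyperPrep. The authors deposited one table of raw counts per gene. Per the submitters' processing notes, FastQC 0.11.5, Trimmomatic 0.36, HISAT2 2.1.0, SAMtools 1.3.1, featureCounts and the genome build Sscrofa11.1 were used; the strand setting of the counting is not given in the sources used here. A total of 24 rows named only by a number, holding 0.169% of the counts, were left out.

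From these counts, edgeR 4.0.16 in R 4.3.3 fitted the 4 group means of all 16 libraries by quasi-likelihood, with TMM scaling, filterByExpr and Benjamini-Hochberg adjustment over 14530 genes. Standard errors are the log2 change divided by the square root of F, and 95% intervals use 12 residual degrees of freedom. The method was tested on simulated data first. Labels name biological replicates but not the animals behind a number, so p-values measure the spread between these samples. Counts varied more between replicates than sampling allows (chi-square per degree of freedom 8.17 to 68.06 within groups), so no library was taken for a repeat. Same-numbered libraries of one sex deviated together (correlations 0.13 to 0.49 in 8 pairs, and 16 of 16 libraries matched their own number best), so the numbers appear to pair the surfaces. The labels do not state such a pairing. The main fit therefore left it out, and a replicate block was an alternative.

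Alternatives were other scaling (RLE), DESeq2 1.42.0, limma-voom (limma 3.58.1), other filters, a replicate block, only the libraries compared, and libraries left out singly or as a pair (male gel 2 with female plastic 4). A fit without TMM factors was added after seeing the data. The members, lists and tests were chosen with earlier results of these data known. Genes were named by a rule: up to 8 called members per direction and surface comparison with the smallest p, up to 3 per direction between the sexes and for the difference between the sexes in surface change, X-linked members, paralogs, and up to 2 called genes per direction of each list. The rule gave NDUFS3 for its female minus male difference on plastic (-0.17, SE 0.10, adjusted p = 0.98). Its surface values were added after they were seen. NDUFS4, NDUFS5, NDUFS7, NDUFS8, NDUFB4, COX7C, ATP5J and the other members outside the rule were named after their values were seen. So were NRF1 and GABPA among the regulators. Gene coordinates and overlaps come from RefSeq's Sscrofa11.1 annotation, in which all 69 symbols matched. Without gene lengths, levels were not compared between genes, and no sequences were used here. The values of 1 member are not reported here.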

Additional observations from a re-analysis of the deposited data

Results flagged for a closer look

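Single libraries stood apart from the other 3 of their group in 13 of 120 groups examined over 30 named members, judged by Dixon's test at its 95% critical value. Chance marks about 1 in 20 independent groups. These groups share the same libraries, and some of the members were named by their p. The rate over all tested genes was not computed, so an excess particular to these members cannot be read from the count. Female plastic 4 accounted for 3 of the 13 and male gel 2 for 2.

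Female plastic 4 was high for NDUFA4L2, at 3.16 CPM where the other 3 had 1.96 to 2.13 CPM, and for NDUFB3, at 22.5 CPM where the others had 15.2 to 16.3 CPM. It was low for NDUFA2, at 6.96 CPM against 10.5 to 10.6 CPM in the others. Male gel 2 was high for NDUFA5, at 35.9 CPM against 14.5 to 17.3 CPM, and low for ATP5G3, at 42.4 CPM against 71.5 to 74.3 CPM.

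Female gel 4 had 15.6 CPM of NDUFA4L2, where the other female gel libraries had 2.56 to 4.14 CPM, and 15.1 CPM of NDUFA12, where they had 19.4 to 20.3 CPM. Female gel 3 had 79.9 CPM of ATP5F1 against 73.6 to 74.5 CPM, and female plastic 3 had 30.9 CPM of COX7A2 against 26.4 to 26.9 CPM. Male gel 3 had 74.1 CPM of ATP5G2 against 62.9 to 64.7 CPM. Male plastic 3 had 25.9 CPM of NDUFB10 against 23.2 to 23.5 CPM and 77.4 CPM of ATP5G3 against 73.4 to 73.6 CPM. Male plastic 1 had 19.2 CPM of NDUFA8 against 17 to 17.3 CPM.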

How the results depend on the processing

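The counts of members called were 15 over both sexes, 13 in females and 9 in males. Without TMM factors they were 47, 39 and 28 (55.6%, 37.2% and 41% of all tested genes), and without a filter on low counts 8 in females and 4 in males. With only the 8 libraries of one sex 3 were called in males. The male calls of ATP5G2, COX6C, NDUFA13, NDUFS1, ATP5F1 and NDUFB10 were lost there. In the same setting the female calls of NDUFA4L2, SDHD, NDUFS1, NDUFS3 and NDUFS4 were lost. Leaving out single libraries gave 12 to 19 over both sexes, 5 to 20 in females and 1 to 9 in males. RLE scaling, DESeq2, limma-voom and the stricter CPM filter stayed within 1.5 times of each count, but single calls were lost. With RLE scaling NDUFS3 and NDUFB10 were not called over both sexes, nor NDUFS1, NDUFS3, NDUFS4 and NDUFB4 in females. With limma-voom NDUFA4L2 was called in neither sex. Sex differences and the difference between the sexes in surface change gave 0 members in all these settings, and no named member reversed a called direction. The cause of these shifts was not tested. Depth limits COX7A1 and NDUFA4L2 most, with a median of 36 and 57 counts per library.

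With the replicate number as a block, 15 members passed over both sexes, 11 in females and 11 in males (41.2%, 27.6% and 29.7% of all tested genes). It changed no member's call other than those given beside their results above. For the sex comparisons the block entered as a correlation estimated by limma, 0.19, and called 0 members.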

Other observations

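Ribosomal protein genes were lower on plastic over both sexes more often than they were higher. Of 77 mitochondrial ribosomal protein genes 1 rose and 20 fell (27.3%, against 38.3% of all tested genes), with a median log2 change of -0.15 and 62 of 77 negative. Of 79 tested cytosolic ribosomal protein genes 0 rose and 32 fell (40.5%, against 38.3% of all tested genes, 19.8% lower), with a median of -0.21 and a negative estimate in 79 of 79. Their summed level was 32700 to 38900 CPM in the plastic libraries and 37200 to 47500 CPM in the gel libraries, so the ranges overlapped. Without male gel 2 and female plastic 4 together, 1 mitochondrial ribosomal gene rose and 26 fell, and 0 cytosolic ones rose and 41 fell, in a fit where 44.7% of all tested genes passed, 23.4% lower.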
